A study of Rattus norvegicus with 6 samples.

Results

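Nuclear factor I (NFI) is a family of transcription factors encoded by 4 genes, Nfia, Nfib, Nfic and Nfix, and its expression was compared between dividing and BMP4-arrested neural stem and progenitor cells (NSPCs) of the adult rat hippocampus. The members were taken by gene symbol from the array annotation, and all 4 were found among the 17245 genes measured, each on a single probe set. The cells came from a culture line described earlier, for which the labels name no allele or transgene, and were grown as neurospheres in N2 medium. Over 4 days the A-NSPCs (3 arrays) received 10 ng/ml FGF2 and the Q-NSPCs (3 arrays) received 10 ng/ml FGF2 together with 50 ng/ml BMP4, so that all cultures received the mitogen and only the Q-NSPCs received BMP4. Each array was a separate biological replicate hybridised to a GeneChip Rat Gene 1.1 ST microarray, and the values are log2 intensities after RMA normalization.

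NFI proteins bind DNA as dimers through a conserved domain at the N-terminus, recognising the palindrome made of TTGGC and GCCAA, and they can activate or repress the genes they bind. In the developing mouse brain Nfia and Nfib are known for switching progenitors towards glial fates, with Nfia induced downstream of Sox9, and Nfix for the timing of progenitor differentiation, hippocampus included. In cultured mouse neural stem cells Nfix is also known as a regulator of the quiescent state, while Nfic is known chiefly from tooth root development.

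Nfia, Nfix and Nfib were upregulated in Q-NSPCs, by 2.13-fold, 1.86-fold and 1.36-fold, and Nfic did not pass the test. The words rose and fell are kept for genes with a Benjamini-Hochberg adjusted p under 0.05 in limma, taken over all 17245 genes. By that rule 3 of the 4 NFI genes rose and 0 fell, on arrays where 7.91% of all genes rose, 6.2% fell and 14.1% did either.

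The genes lie on chromosome 5 (Nfia, 117359006 to 117897391, and Nfib, 101805168 to 102020618), chromosome 7 (Nfic, 8928423 to 8963455) and chromosome 19 (Nfix, 40259873 to 40356966) of the rat assembly GRCr8. RefSeq lists 10 transcripts for Nfia, 14 for Nfib, 4 for Nfic and 12 for Nfix, and a single array value per gene cannot separate them. The RefSeq windows at an annotated start of each gene, from 250 bases before it to 50 bases after it, are shown because 3 of the genes rose and because the family's own motif can be looked for in them. They are Nfia at chr5:117557030-117557329 on the plus strand, Nfix at chr19:40260089-40260388 on the plus strand, Nfib at chr5:102019896-102020195 on the minus strand and Nfic at chr7:8932919-8933218 on the plus strand. The windows run 5′ to 3′ on the strand of the gene, and capitals mark the motif matches.
Nfia: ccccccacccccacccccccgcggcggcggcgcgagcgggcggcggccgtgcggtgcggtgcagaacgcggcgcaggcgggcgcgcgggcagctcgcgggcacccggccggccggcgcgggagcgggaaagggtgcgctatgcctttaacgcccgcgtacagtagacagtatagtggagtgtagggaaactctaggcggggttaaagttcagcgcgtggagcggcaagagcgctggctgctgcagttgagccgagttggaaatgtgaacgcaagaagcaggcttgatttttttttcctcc
Nfix: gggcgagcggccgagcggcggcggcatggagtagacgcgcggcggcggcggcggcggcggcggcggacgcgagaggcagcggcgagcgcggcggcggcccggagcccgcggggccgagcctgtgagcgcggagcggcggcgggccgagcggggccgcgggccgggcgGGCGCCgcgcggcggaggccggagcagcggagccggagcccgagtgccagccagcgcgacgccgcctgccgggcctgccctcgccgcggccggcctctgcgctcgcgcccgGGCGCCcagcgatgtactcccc
Nfib: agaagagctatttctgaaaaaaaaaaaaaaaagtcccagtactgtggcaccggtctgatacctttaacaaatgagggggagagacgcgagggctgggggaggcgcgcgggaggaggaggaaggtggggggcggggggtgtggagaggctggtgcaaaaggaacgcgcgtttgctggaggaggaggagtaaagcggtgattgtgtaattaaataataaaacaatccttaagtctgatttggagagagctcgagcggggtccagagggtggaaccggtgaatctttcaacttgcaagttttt
Nfic: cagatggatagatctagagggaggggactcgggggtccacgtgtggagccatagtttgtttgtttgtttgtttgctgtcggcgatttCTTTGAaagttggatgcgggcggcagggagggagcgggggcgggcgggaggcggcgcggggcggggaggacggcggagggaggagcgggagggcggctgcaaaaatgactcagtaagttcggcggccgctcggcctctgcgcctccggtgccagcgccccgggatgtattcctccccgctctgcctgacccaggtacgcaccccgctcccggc

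Of 6 motifs searched on both strands, 4 were in 0 of the 4 windows. These were the NFI element TTGGCA, which 13.6% of the first windows of all 27457 RefSeq genes held, and the full palindrome with TTGGC and GCCAA spaced by 5 bases, which 0.0437% held. They also included the CCAAT box, a motif of NF-Y that was in 37.7% of all windows and whose reverse can share bases with the NFI element. The last was CTTTGT, bound by LEF1 and found in 18.3% of all windows. The second LEF1 motif, CTTTGA, was found in the Nfic window at bases -163 to -158 from the start (15.9% of all windows), and the GC-rich SMAD motif GGCGCC in the Nfix window at -83 to -78 and again at 29 to 34 (11.8% of all windows). The sequences share a high content of CpG. The Nfix window was 86% G and C with 64 CpG, the Nfia window 68% with 38, the Nfic window 66.7% with 29 and the Nfib window 51% with 14, where the median over all genes was 52.3% with 7 CpG. The Nfib window was thus the exception in base composition, below that median in G and C although above it in CpG. The motif shares were taken over all windows and not matched for base composition. A motif of G and C alone, such as GGCGCC, has more chances to occur in a window like that of Nfix. Motifs that also hold A and T have fewer there, so the matches and absences carry no test.

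Nfia showed the greatest change of the family. Its log2 intensity was 11.51, 11.81 and 11.45 in the A-NSPCs, by replicate number, and 12.50, 12.74 and 12.81 in the Q-NSPCs. The groups did not overlap, and the lowest Q-NSPC array lay 0.69 above the highest A-NSPC array, with A-NSPC replicate 2 the nearest to the Q-NSPCs. The mean went from 11.59 ± 0.19 to 12.68 ± 0.16 (SD, n = 3 in each group), a log2 fold change of 1.09 (SE 0.13, 95% interval 0.79 to 1.40, limma adjusted p = 0.00453). In the whole array 272 genes, or 1.58%, had a change at least as high.

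Nfix followed. The 3 A-NSPC arrays gave 11.22, 11.51 and 11.42 for it on the log2 scale, and the 3 Q-NSPC arrays gave 12.02, 12.29 and 12.52. There was again no overlap, the gap between groups being 0.51, and the Q-NSPC arrays were spread more widely than the A-NSPC arrays. The group means were 11.38 ± 0.15 and 12.28 ± 0.25 (SD, n = 3 in each group), and the log2 fold change was 0.90 (SE 0.15, 95% interval 0.56 to 1.23, limma adjusted p = 0.0103). This change was reached by 415 genes (2.41%). The call was lost without A-NSPC replicate 1, the array with the lowest Nfix value, where the log2 fold change was 0.81 and the limma adjusted p 0.0566.

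Nfib rose less, from intensities of 12.45, 12.43 and 12.54 in A-NSPCs to 12.83, 12.88 and 13.06 in Q-NSPCs. The A-NSPC arrays lay close together and the gap to the lowest Q-NSPC array was 0.28. Its mean moved from 12.48 ± 0.06 to 12.92 ± 0.12 (SD, n = 3 in each group), a log2 fold change of 0.45 (SE 0.10, 95% interval 0.21 to 0.68, limma adjusted p = 0.0270), and 1547 genes (8.97%) changed at least as much upwards. The size of the change held when arrays were left out, between 0.38 and 0.49, but the call did not. Leaving out the first, the second or the third A-NSPC array gave a limma adjusted p of 0.101, 0.0762 or 0.0725, and leaving out the second or the third Q-NSPC array 0.0739 or 0.105. Among the arrays left out, the call was kept only without Q-NSPC replicate 1, at 0.0127.

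Nfic values were 10.34, 10.20 and 10.03 in A-NSPCs and 10.35, 10.49 and 10.55 in Q-NSPCs. A-NSPC replicate 1 and Q-NSPC replicate 1 were almost equal, so that the groups were separated by 0.01 only. The means were 10.19 ± 0.16 and 10.46 ± 0.10 (SD, n = 3 in each group), with a difference of 0.27 on the log2 scale (SE 0.11, 95% interval 0.01 to 0.53) that did not pass the test (limma adjusted p = 0.153). The interval reaches from almost no change to a rise larger than the Nfib estimate, so an Nfic change was neither shown nor bounded closely. All 4 genes had every Q-NSPC array above every A-NSPC array, which held for 18.7% of all genes (3219), and for Nfic this separation adds little.

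**Figure D1:**
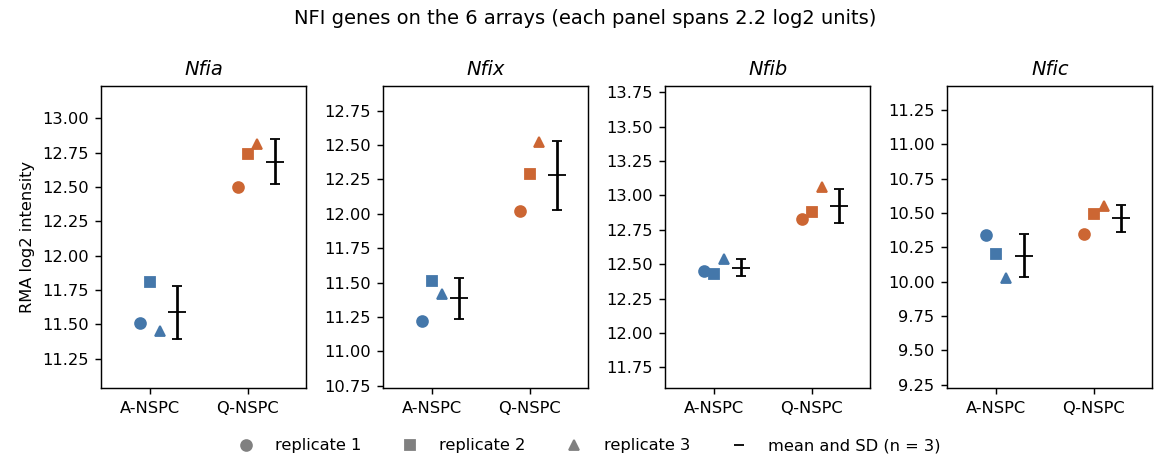
RMA log2 intensity (vertical axis) of each NFI gene on the 3 A-NSPC and 3 Q-NSPC arrays, with a marker shape per replicate number and the mean with its SD beside the points. Every panel spans the same number of log2 units, and the gap between the groups narrows from 0.69 in Nfia over 0.51 in Nfix and 0.28 in Nfib to 0.01 in Nfic; levels of different genes cannot be compared, since each probe set has its own response.

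The members were then compared with each other by the change they showed. For each pair the difference of the log2 values was taken on every array and set to a mean of 0 in A-NSPCs, and an exact two-sided permutation test over the arrays was run for the 6 pairs, which cannot give a p below 0.1 with 3 arrays against 3. Nfia minus Nfib was 0.56, 0.75 and 0.64 on the Q-NSPC arrays against -0.06, 0.26 and -0.21 on the A-NSPC arrays, so Nfia changed by 0.65 more than Nfib on the log2 scale without overlap (exact permutation p = 0.1, adjusted over the pairs 0.15). Nfix changed by 0.45 more than Nfib, with 0.29, 0.51 and 0.56 on the Q-NSPC arrays and none of the A-NSPC arrays above 0.17 (exact permutation p = 0.1, adjusted 0.15). Against Nfic the excess was 0.82 for Nfia and 0.62 for Nfix, also without overlap and with the same p-values. By measured change the members thus fell into a pair with a greater rise, Nfia and Nfix, and a pair with a smaller difference, Nfib and Nfic. This holds as far as the arrays do not overlap, while no pair could pass the threshold in this design. Each probe set has its own response, so the order of measured changes need not be the order of changes in RNA. Within the pairs the arrays did overlap. Nfia exceeded Nfix by 0.20 (exact permutation p = 0.3, adjusted 0.36) and Nfib exceeded Nfic by 0.17 (exact permutation p = 0.4, adjusted 0.4).

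Q-NSPC replicate 1 stood apart from the other Q-NSPC arrays, and its place was examined for each member. Its mean distance (1 minus Pearson's r over all genes) to the A-NSPC arrays was 0.0120, as was that to the other Q-NSPC arrays, whereas the A-NSPC arrays differed among themselves by 0.00600. The place of that array was expressed as the percent of the way from the A-NSPC mean to the mean of Q-NSPC replicates 2 and 3. It was 76.7% for Nfia, 71.5% for Nfib, 62.3% for Nfix and 50.0% for Nfic. Without that array 2195 genes (12.7% of those tested) rose, Nfia, Nfib and Nfix among them, and 1884 (10.9%) fell. Over the genes that rose the median place was 49.7%, with quartiles of 32.1% and 66.1%. Of these genes 14.3% lay at or above Nfia, 19.5% at or above Nfib and 30.1% at or above Nfix. In replicate 1 Nfia, Nfib and Nfix were thus nearer than most of these genes to the level of the other Q-NSPC arrays. Nfia and Nfib lay above the upper quartile and Nfix below it. Each place rests on a single array and carries no error. For Nfib replicates 1 and 2 were 12.83 and 12.88, where the SD of the Q-NSPC arrays was 0.12.

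Genes of cell division were in another place on the same array. The 6 division markers (Mki67, Top2a, Ccnb1, Mcm2, Cdk1 and Aurkb) had a median place of 20.4%. For them replicate 1 had moved only a small part of the way to the lower level of replicates 2 and 3. Over the 1884 genes that fell without this array the median place was 40.1%, with quartiles of 22.7% and 59.9%. Genes that fell thus lay lower in general than genes that rose. The log2 intensity of Mki67, which marks cycling cells, was 12.02 in Q-NSPC replicate 1, 10.83 in replicate 2 and 11.15 in replicate 3, against 12.21, 12.28 and 12.29 in A-NSPCs. Markers of the oligodendrocyte lineage had a median place of 13.2% over the 6 that fell without this array, and neuronal markers one of 58.6% over 6. This measure was chosen after the arrays had been examined, and why the array stands apart was not tested.

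**Figure D2:**
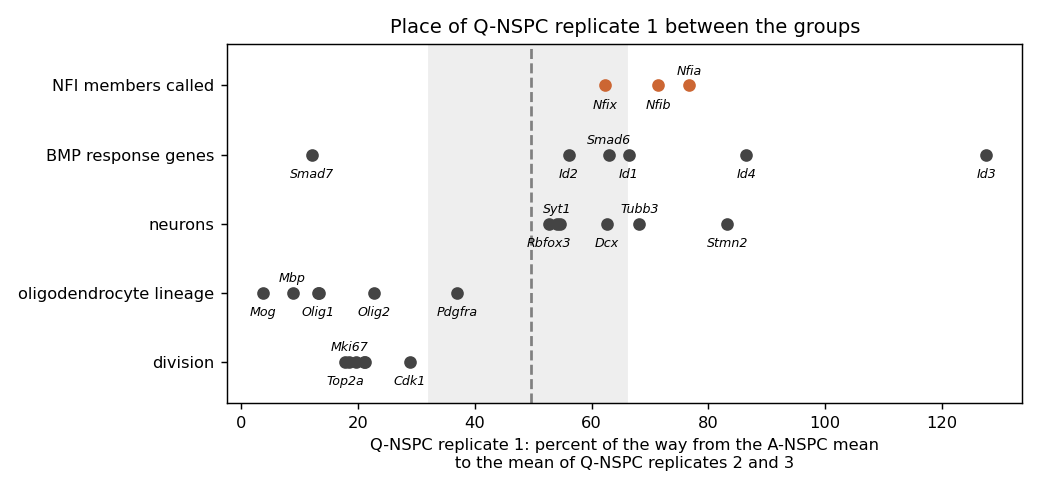
Place of Q-NSPC replicate 1 (horizontal axis, percent of the way from the A-NSPC mean to the mean of Q-NSPC replicates 2 and 3) for NFI genes and for listed genes that passed the test without that array, one point per gene and names given where space allows. The dashed line and grey band are the median (49.7%) and quartiles (32.1% and 66.1%) of the 2195 genes that rose without it. The division and oligodendrocyte points lie to the left of the NFI points, which range from 62.3% to 76.7%. Those markers fell, and the 1884 genes that fell without this array had a median of 40.1% (quartiles 22.7% and 59.9%, not drawn).

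Markers of the cell types such cultures can hold were read beside the NFI genes. Sox2, a defining factor of NSPCs, was 12.25 to 12.30 in A-NSPCs and 12.46 to 12.55 in Q-NSPCs. It did not pass the test (0.24, limma adjusted p = 0.114). Of 7 progenitor markers Pax6 alone rose and 0 fell (median -0.14), while Nes, Fabp7 and Hes1 fell without Q-NSPC replicate 1. The summed level of the 7 progenitor markers was 14.72 to 14.83 in A-NSPCs and 14.51 to 14.80 in Q-NSPCs. The largest part of that sum was the Vim signal (13.87 to 13.93 and 13.75 to 13.79), which did not pass the test, so the sum says little about dimmer markers such as Pax6. Of 7 neuronal markers 5 rose and 1 fell (median log2 fold change 1.17), among them Tubb3, a neuronal tubulin (1.78, limma adjusted p = 0.00229), and Dcx of immature neurons (1.17, limma adjusted p = 0.00499), whereas Rbfox3 of mature neurons fell by 0.69 (limma adjusted p = 0.0284). The summed level of the 7 was 13.83 to 13.87 on a log2 scale in A-NSPCs and 14.52 to 15.11 in Q-NSPCs. Division markers fell in 4 of 6 cases, and in 6 without Q-NSPC replicate 1 (median -0.95, summed level 14.13 to 14.20 in A-NSPCs and 12.76 to 13.90 in Q-NSPCs) and oligodendrocyte markers in 2 of 8, and in 6 without that array (median -0.76, summed level 13.59 to 13.75 and 11.88 to 13.42). Of 7 astrocyte markers Gfap alone rose. Their summed level was 13.23 to 13.38 in A-NSPCs and 13.58 to 13.71 in Q-NSPCs, a sum made up mostly of the Aldoc signal (13.01 to 13.17 and 13.36 to 13.52), which did not pass the test. Microglial (6), endothelial (3) and mural or fibroblast (5) markers had 0 calls in limma (1 microglial marker at an unadjusted p under 0.05), with values between 4.61 and 8.52. NFI genes are expressed by neurons and glia as well as by progenitors, and in bulk cultures a change in the share of cells cannot be told apart from a change of RNA per cell, so the part of these cell types in the NFI rise was not tested.

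Genes reported downstream of NFI factors in glia rose in part, Gfap by the most. Of 16 listed, 13 were measured, and 4 rose and 0 fell in limma (median log2 fold change 0.11, over all genes 0.01), where an unadjusted p under 0.05 was reached by 5 that were higher and 2 that were lower. Gfap, the intermediate filament of astrocytes and a known NFI target, was 7.01, 6.92 and 6.43 in A-NSPCs and 8.55, 8.31 and 9.04 in Q-NSPCs, a log2 fold change of 1.85 (SE 0.21, limma adjusted p = 0.00374) without overlap. The others were Clu, which encodes the chaperone clusterin (1.07, SE 0.30, limma adjusted p = 0.0485), Sparcl1, a secreted matrix protein of astrocytes (0.58, SE 0.11, adjusted p = 0.0161), and Fgfr3, a receptor for FGFs (0.56, SE 0.10, adjusted p = 0.0141). Aldoc, a glycolytic enzyme of astrocytes, did not overlap between groups but missed the threshold (0.34, SE 0.10, limma adjusted p = 0.0551). The water channel Aqp4 differed by -0.06 (95% interval -0.33 to 0.21) and the glutamate transporters Slc1a3 and Slc1a2 by 0.00 and -0.21, neither of which passed, nor did Aqp4.

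Mmd2 and Zcchc24, targets reported for Nfia in mouse or chick gliogenesis, went the opposite way on some arrays. Mmd2 was 11.64, 12.18 and 11.68 in A-NSPCs and 12.13, 10.11 and 10.69 in Q-NSPCs, so that replicate 1 was at the A-NSPC level and the other Q-NSPC arrays well below it. Zcchc24 was 11.53, 11.95 and 11.63 in A-NSPCs against 11.66, 10.44 and 10.77 in Q-NSPCs. Fabp7, a fatty acid binding protein of radial glia, repeated the pattern with 12.72, 11.48 and 11.87 in Q-NSPCs, against 12.48 to 12.79 in A-NSPCs. None of them passed the test over all arrays, with changes of -0.85, -0.75 and -0.65. Without Q-NSPC replicate 1 these 3 genes and Slc1a2 fell, so the list then held 4 falls and 4 rises, with Aldoc (limma adjusted p = 0.0394) in the place of Clu (limma adjusted p = 0.0510). The rises were 1 when A-NSPC replicate 1 or 3 was left out and 2 when Q-NSPC replicate 2 or 3 was. RefSeq start windows were at hand for 14 of the listed genes, and TTGGCA was in 3 of them, those of S100b, Slc1a3 and Mmd2. The share over all windows was 13.6%. None of these 3 genes rose, which was so for 9 of the 13 measured genes of the list. The genes with a window and the measured genes are not the same set. Aldh1l1, Glul and Apcdd1 had a window but no array value, while Zcchc24 and Clu, which rose, had no window to search.

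Progenitor genes reported to be held down by NFI factors in mouse gave 1 rise and 0 falls among 7 in limma (median 0.08), with 3 lower at an unadjusted p under 0.05. The rise was in Pax6, a transcription factor of radial glia and neurogenic progenitors, from 7.24, 7.48 and 6.92 to 8.22, 8.33 and 8.31, a log2 fold change of 1.07 (SE 0.14, limma adjusted p = 0.00576). Hes1, the Notch effector whose repression by Nfia was described in mouse, was 8.70, 9.22 and 8.77 in A-NSPCs and 8.82, 6.73 and 7.98 in Q-NSPCs. It differed by -1.06 with an SE of 0.45 and did not pass (limma adjusted p = 0.157), again with replicate 1 at the A-NSPC level. Ezh2, the Polycomb methyltransferase described in mouse as repressed by Nfib, differed by -0.72 (SE 0.22, limma adjusted p = 0.0632), and Nes, the progenitor filament nestin, by -0.57 (SE 0.18, limma adjusted p = 0.0644). These 3 genes fell without Q-NSPC replicate 1, with limma adjusted p-values of 0.0102, 0.000749 and 0.00218. Hes5, Sox9 and Bbx differed by 0.08 to 0.12 and did not pass with or without that array.

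Neuronal genes that NFI factors are reported to activate in mouse cerebellar granule neurons numbered 4, of which 1 rose (median 0.35). Cntn2, an axonal adhesion molecule, rose by 0.49 on the log2 scale (SE 0.11, limma adjusted p = 0.0252). Among the arrays left out it passed only without Q-NSPC replicate 1, where Efnb1 rose too, and the count was 0 without any other array. Efnb1, an ephrin ligand, was 10.26, 9.80 and 9.84 against 10.24, 10.77 and 11.01, overlapping at replicate 1 (0.70, limma adjusted p = 0.0589). Cdh2, encoding N-cadherin, differed by 0.22 and the receptor subunit gene Gabra6 by 0.06, and neither passed.

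Factors reported upstream of NFI genes or as partners of NFI proteins gave 3 rises and 0 falls among 6 (median 0.33). Lef1, the transcription factor of canonical Wnt signalling, which the study itself singled out on these arrays, rose from 9.42, 9.28 and 9.43 to 10.35, 10.75 and 10.43, by 1.13 (SE 0.13, limma adjusted p = 0.00331). That compares with 1.09 for Nfia, and the call was kept whichever array was left out. The study also measured Lef1 by RT-qPCR and LEF1 by Western blot. It reported that tagged NFIX and LEF1 co-precipitated from a heterologous cell line, which is why Lef1 is listed as a partner. The study took up LEF1 partly for its higher mRNA in these cultures. The Lef1 rise was thus known beforehand and adds no separate support to the count. Ski, a corepressor that interacts with NFI proteins and SMADs, rose by 0.52 (SE 0.14, limma adjusted p = 0.0478), and Pou3f2, a POU-domain factor of neural progenitors, by 0.51 (SE 0.12, limma adjusted p = 0.0322). The list held 1 rise instead of 3 when any array other than Q-NSPC replicate 1 was left out, and without that array it held 3 rises and a fall, that of Notch1. Sox9, the known inducer of Nfia in the embryonic spinal cord, was 11.45, 11.99 and 11.90 in A-NSPCs and 11.78, 11.96 and 11.96 in Q-NSPCs, overlapping fully, with a difference of 0.12 (95% interval -0.22 to 0.47). Notch1 and its nuclear partner Rbpj differed by -0.43 and 0.16 and did not pass.

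NF-Y and C/EBP, other families named for binding CCAAT sequences, gave 0 calls among 8 measured genes in limma (median -0.01), and 1 at an unadjusted p under 0.05. The NF-Y subunit genes Nfya and Nfyb differed by -0.01 and 0.00, and Nfyc by 0.42 (SE 0.14, limma adjusted p = 0.0788), which passed only without Q-NSPC replicate 1 among the arrays left out. The C/EBP genes ranged from -0.33 in Cebpg to 0.12 in Cebpe.

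Direct BMP response genes rose in 5 of 6 cases (median 1.31), Id3 by 1.90, Smad6 by 1.68, Id4 by 1.59, Id1 by 1.02 and Id2 by 0.52, with limma adjusted p-values between 0.00160 and 0.0292. Id genes encode inhibitors of basic helix-loop-helix factors and Smad6 an inhibitory SMAD, both induced early by BMP signalling. Id3 in Q-NSPC replicate 1 was at 128% of the way to the other Q-NSPC arrays and Id4 at 86.5%, while Id1, Smad6 and Id2 lay at 66.4%, 63.1% and 56.1% and Smad7, which did not pass over all arrays, at 12.2%. The count was 3 without Q-NSPC replicate 3. Nfia, at 1.09, changed by about as much as Id1, and Nfib, at 0.45, by slightly less than Id2.

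**Figure D3:**
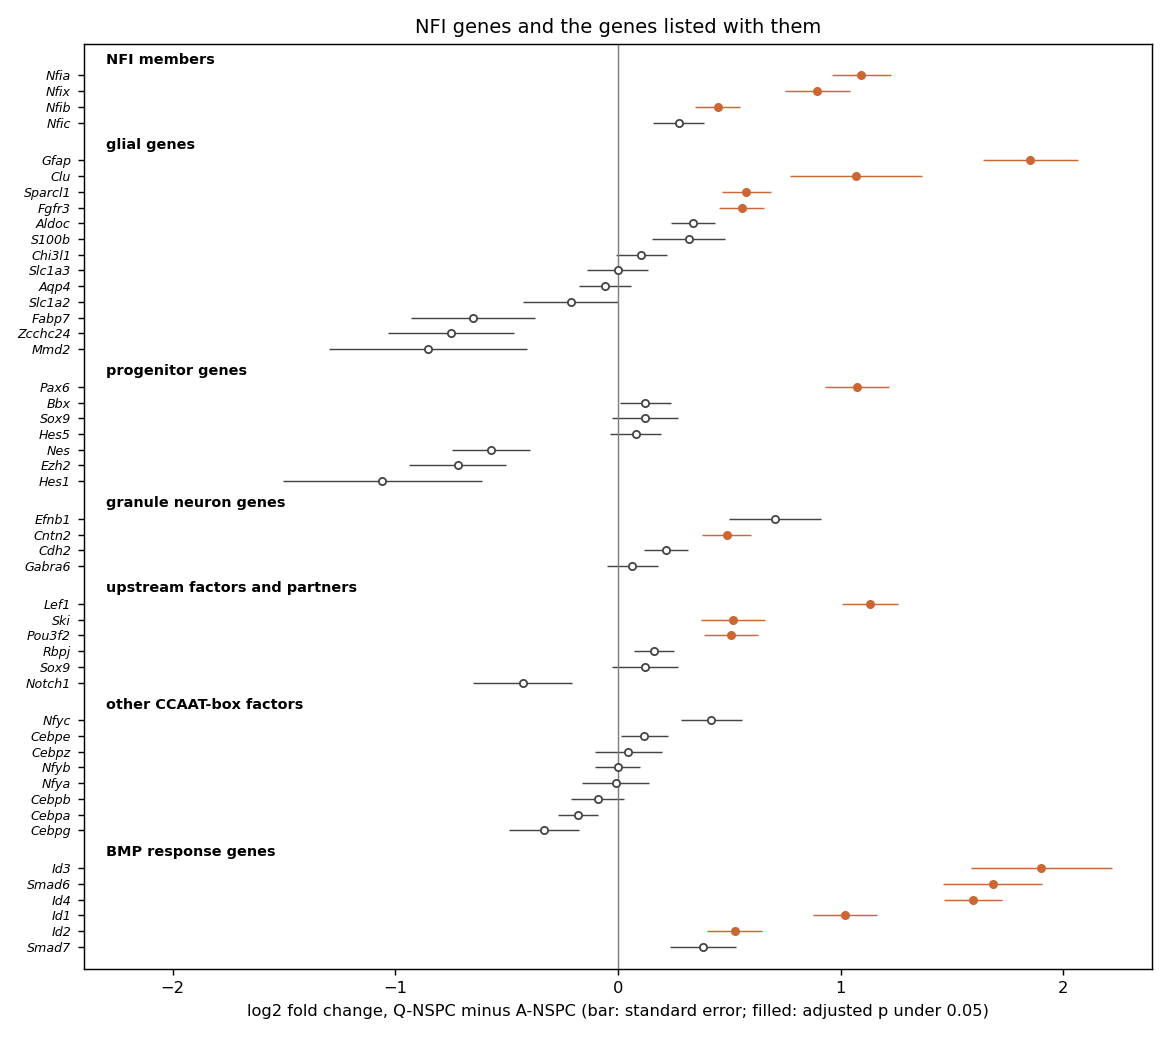
Log2 fold change, Q-NSPC minus A-NSPC (horizontal axis), with its standard error for the 4 NFI genes and each measured gene of the 6 lists, filled where the adjusted p was under 0.05. NFI genes lie between 0.27 and 1.09, CCAAT-box factors between -0.33 and 0.42 and BMP response genes between 0.38 and 1.90. Glial and progenitor genes spread to both sides.

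The genes whose values over the 6 arrays were most like those of each upregulated member were found by the root mean square difference of log2 values, after the mean over the arrays was taken off each gene. Nearest to Nfia were Dach1, a nuclear cofactor of the Dachshund family (0.063), Sox4, a SoxC factor of neuronal progenitors (0.065), Abat, which breaks down GABA (0.086), Isl1, a LIM homeodomain factor (0.090), and Wls, which carries Wnt proteins to the cell surface (0.090). Sox4 was 10.14, 10.43 and 10.10 in A-NSPCs and 10.98, 11.25 and 11.34 in Q-NSPCs, so that it shared with Nfia the high second A-NSPC array and the low first Q-NSPC array. Nfix came 47th in this order, at 0.144, well ahead of Nfib and Nfic, at 0.356 and 0.431.

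Nearest to Nfix were Unc5c, a netrin receptor (0.042), Sesn3, a stress-responsive sestrin (0.061), Ncoa2, a nuclear receptor coactivator (0.064), Rps6ka5, a kinase that acts on chromatin (0.069), and Eapp, an E2F-associated protein (0.074). Sesn3 gave 10.84, 11.20 and 11.04 in A-NSPCs and 11.81, 12.03 and 12.16 in Q-NSPCs, the same order of arrays as Nfix within each group. Nearest to Nfib were Atn1, a nuclear corepressor (0.022), Atp2b3, a calcium pump of the plasma membrane (0.029), Mex3b, an RNA-binding protein (0.040), Bicral, a subunit of a chromatin remodelling complex (0.040), and Cmip (0.042). These 5 rose by 0.39 to 0.43 on the log2 scale, as the measure asks of genes near Nfib. The order of likeness rests on 6 arrays that mostly separate into the groups compared, so it describes similar values and carries no test.

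**Figure D4:**
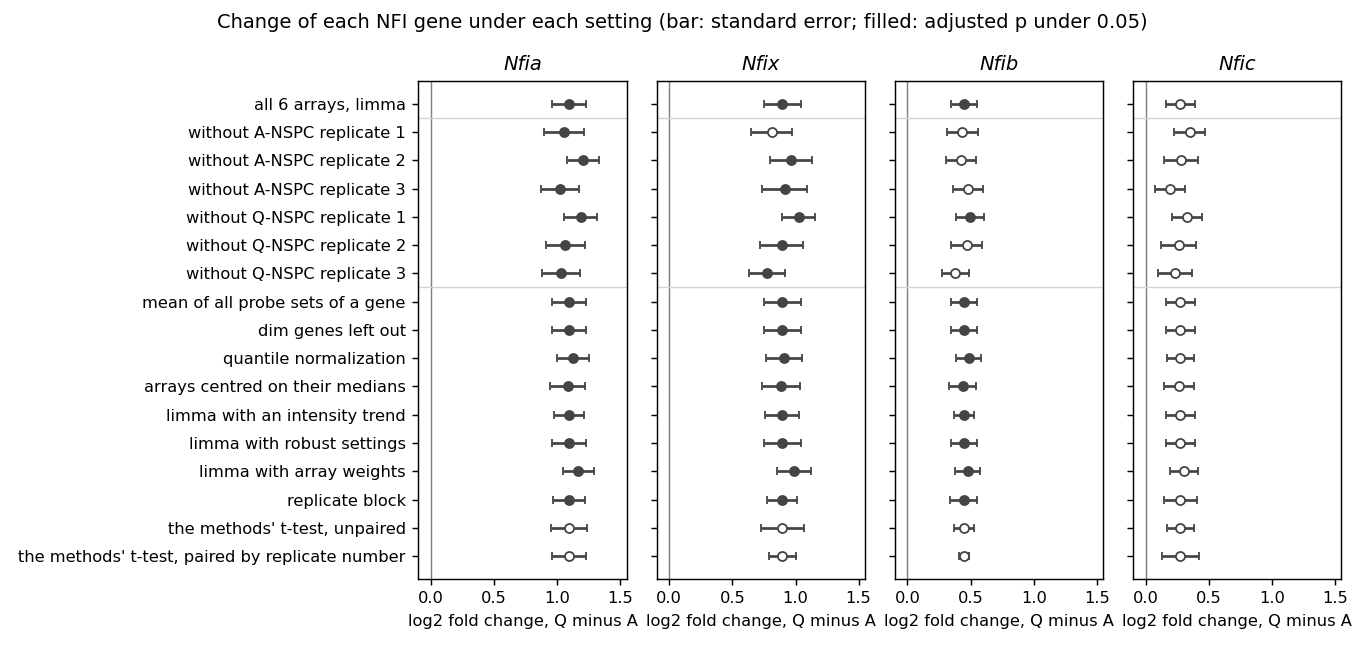
Log2 fold change of each NFI gene (horizontal axis) with its standard error, for the main fit in the top row, then without each array in turn, then under each other way of processing; filled points passed an adjusted p under 0.05. Nfia is filled in 14 of 16 alternatives, Nfix in 13, Nfib in 9 and Nfic in 0, and several settings change the test but leave the estimate as it is.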

How the data were processed

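RNA of 3 A-NSPC and 3 Q-NSPC cultures was measured on Affymetrix Rat Gene 1.1 ST arrays. The deposited log2 values were made by the authors with RMA (background correction, quantile normalization, probe summary); the submitters' processing notes name Partek 6.10 and Affymetrix Expression Console. Array medians were 7.53 to 7.57. RMA carries no detection call, and the number of arrays limits precision.

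Of 29214 probe sets 18644 had a single gene symbol, 962 several and 9608 none; the 17245 genes were each represented by the probe set with the highest mean. Groups were compared with limma 3.58.1 in R 4.3.3 (lmFit, eBayes, two-sided), with p-values adjusted over all genes. The procedure was tested on simulated data. Alternatives were another summary of probe sets, a filter on dim genes, 2 scalings, limma options, the replicate block, the methods' plain tests and leaving out each array. A member's summed level is the log2 of summed linear intensities. Members and lists were chosen with earlier results of these data known. The text names the NFI genes, list genes that passed (up to 6 a list), list members by role, and the 5 genes nearest to each member that passed. Start windows and gene places came from RefSeq (GRCr8), using the first window listed for a gene.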

Additional observations from a re-analysis of the deposited data

How the results depend on the processing

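Of 16 alternatives (10 ways of processing and 6 arrays left out), 9 could alter the size of an NFI change, and no change turned direction under them. The other 7 leave a difference of group means as it is for genes with a single probe set and bear on the test only. The log2 fold change ranged from 1.02 to 1.20 in Nfia, 0.77 to 1.02 in Nfix, 0.38 to 0.49 in Nfib and 0.19 to 0.35 in Nfic, and these extremes came from arrays left out. The number of NFI genes that passed was 3 in the main fit, 1 to 3 with an array left out, and 0 with either of the methods' plain tests after adjustment, where the changes stayed 1.09, 0.90 and 0.45 and the adjusted p rose to 0.102 (Nfia), 0.119 (Nfix) and 0.113 (Nfib) in the unpaired form and to 0.298 for each in the paired form. Those tests passed 0 and 1 of all genes and share no spread over genes. Of all genes 2433 passed in the main fit, 4028 with array weights, and from 419 (without A-NSPC replicate 1) to 4079 (without Q-NSPC replicate 1) with an array left out.

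Arrays of the same replicate number did not deviate together (r = -0.05, 0.01 and -0.03, other pairs up to 0.08). The values thus gave no sign that the numbers pair the samples, but 3 arrays a group cannot exclude it. With the replicate block 3 NFI genes and 2043 of all genes passed, the limma adjusted p being 0.00888 for Nfia, 0.0117 for Nfix, 0.0443 for Nfib and 0.243 for Nfic. Of the named list genes, Cntn2 and Ski no longer passed with the block (limma adjusted p = 0.0508 and 0.0535), which took the granule neuron list from 1 rise to 0 and the upstream and partner list from 3 to 2. The differences between members kept their direction in the 7 alternatives that could alter them (quantile normalization and 6 arrays left out). Each NFI gene has 1 probe set, so the mean over probe sets changes nothing for them and a fit of further probe sets could not be run. The lowest NFI intensity was 10.03, against array medians of 7.53 to 7.57, but 3 arrays a group leave Nfib near the threshold and Nfic unsettled.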
